A study of Physcomitrium patens with 24 samples.

Results

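The 0-min list of protein-protected RNA sites from untreated protonema (the threadlike early growth stage) of the moss Physcomitrium patens was examined for how its sites divide between a double-strand-specific RNase (dsRNase, RNase V1) and a single-strand-specific RNase (ssRNase, RNaseONE). Every site of that list was taken, 52248 of the 147131 sites in the 3 lists of the series. Each site carries the names of the calls merged into it, and these come from 4 call sets, namely dsRNase replicates 1 and 2 and ssRNase replicates 1 and 2. The libraries were strand-specific and came from formaldehyde-crosslinked tissue grown in shaken liquid culture, with methanol, the ABA solvent, added to the control per the labels' protocols. No strain is named in the labels. At 0 min there were 8 of the study's 24 libraries, 1 protein-bound and 1 structure-only library for each RNase and replicate, so that a call set stands for 2 libraries. The description of the libraries called plusP names a protein kinase where the protocol names proteinase K, which touches no value here because the lists do not separate the protein states. The lists of 30 and 60 min of ABA, whose concentration is micromolar in the design text and millimolar in the treatment protocol, served only as a readout of the 0-min sites.

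Protein interaction profile sequencing digests RNA while crosslinked proteins shield parts of it, and compares it with RNA from which the proteins were removed first. RNase V1 cuts paired or stacked RNA and RNaseONE cuts unpaired RNA, so that protection is read from opposite structural states of the transcript and the digests together cover both. A site protected from either enzyme is a candidate place of contact between RNA and protein. The lists carry no gene names and no read counts, so the tissue could not be checked against marker genes, depth is unknown, and abundant RNA cannot be told apart from more bound protein where sites are dense. The labels do not say that the replicates were separate cultures, so p-values measure a spread that may be technical. Each replicate was divided between the RNases, per the design text.

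The dsRNase sets held 37580 calls in replicate 1 and 43653 in replicate 2, and the ssRNase sets 9611 and 8300. Each dsRNase set was above each ssRNase set, 4.54-fold in the mean (exact two-sided permutation p = 0.333, the smallest that 2 against 2 can give). Because of that difference an absent ssRNase call says less than an absent dsRNase call. Sites called by dsRNase alone numbered 41112, or 78.7% (95% Wilson interval 78.3 to 79.0%), and sites called by both RNases numbered 8887, or 17.0% (16.7 to 17.3%). Sites called by ssRNase alone were the rarest kind, 2249 or 4.30% (4.13 to 4.48%). Wilson intervals here cover counting error alone.

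Most ssRNase sites also had a dsRNase call. Of the sites of ssRNase replicates 1 and 2, 82.0% and 80.4% also had a dsRNase call, while 22.8% and 19.7% of the sites of dsRNase replicates 1 and 2 had an ssRNase call. The share of sites with an ssRNase call was higher at higher dsRNase support, from 7.52% (7.20 to 7.86%) of sites called in 1 dsRNase replicate to 27.8% (27.3 to 28.4%) of those called in both. Replicates of dsRNase shared 50.5% of the sites called in either, and replicates of ssRNase shared 37.1%. Pairs of 1 dsRNase and 1 ssRNase set shared 12.1 to 17.1% of the sites called in either, which their unequal sizes limit. As a share of the smaller set, overlap was 70.3% within dsRNase, 59.9% within ssRNase and 71.0 to 77.1% between the RNases. Of all sites in the list, dsRNase replicates 1 and 2 called 68.7% and 75.3%, and ssRNase replicates 1 and 2 called 16.0% and 13.2%. Overlap within dsRNase and between the RNases was thus near the share of the list that a dsRNase set called. The 59.9% within ssRNase was above the 16.0% of the list that ssRNase replicate 1 called. The list holds only sites that at least 1 set called, so such shares of the list are not chance levels. They cannot show whether any sets agreed beyond chance. These overlaps were not tested, since 4 sets allow too few pairings.

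Sites supported by a single replicate were common. Sites called in 1 set and no other made up 26.5% and 34.0% of the sites of dsRNase replicates 1 and 2. For both ssRNase sets this share was 10.7%, which is below both dsRNase values (exact two-sided permutation p = 0.333, the smallest possible). Of the sites seen by dsRNase alone, 44.3% (43.9 to 44.8%) were called in both dsRNase replicates. Of those seen by ssRNase alone, 27.3% (25.5 to 29.2%) were called in both ssRNase replicates.

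**Figure D1:**
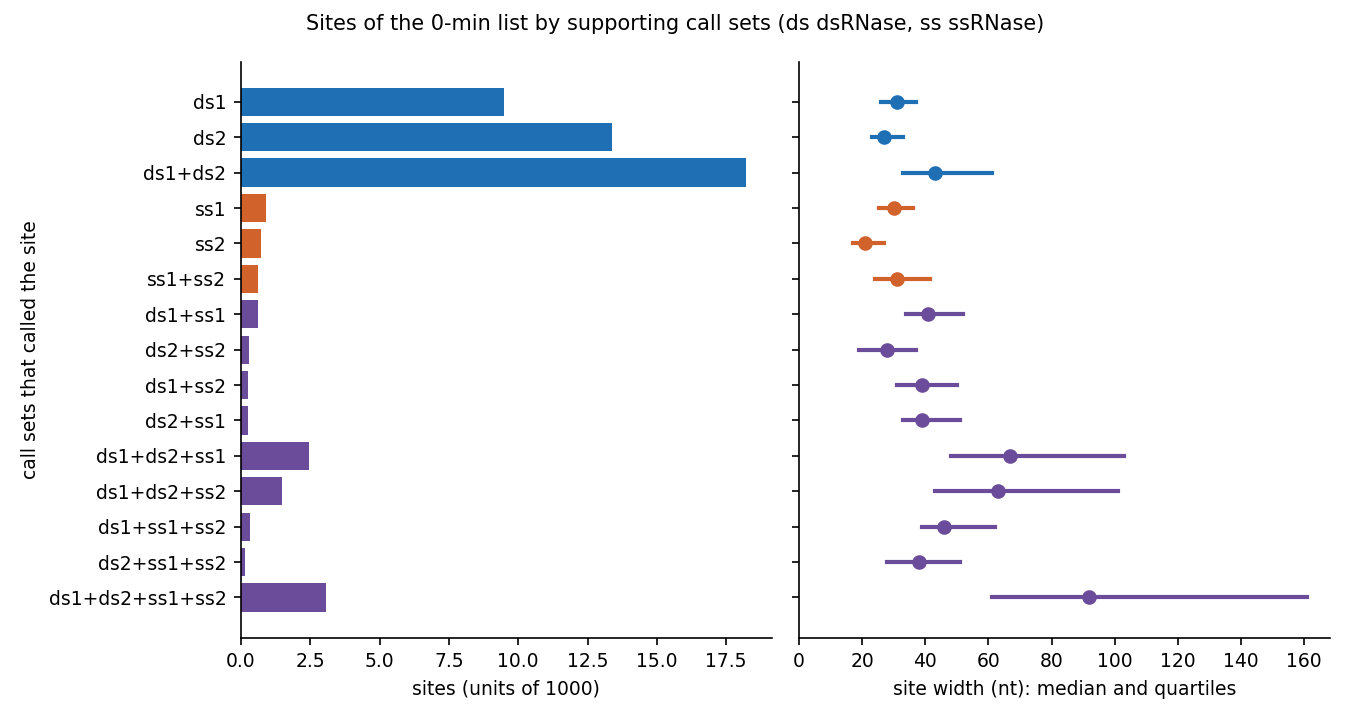
Number of sites, in units of 1000 (left) and site width in nt as median and quartiles (right) for each combination of call sets that called a site, with dsRNase alone in blue, ssRNase alone in orange and both RNases in purple. Sites of both dsRNase sets and no ssRNase set are the most numerous (18229), and sites of all 4 sets are the widest (median 92 nt).

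Sites of both RNases were the widest. Their median width was 65 nt, against 33 nt for dsRNase alone and 28 nt for ssRNase alone. No site of ssRNase alone reached 200 nt, while 766 sites of both RNases and 128 of dsRNase alone did. Sites of both RNases covered 860 kb, those of dsRNase alone 1641 kb and those of ssRNase alone 63.9 kb.

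Merging calls of more sets widens a site, so widths were compared at equal support. Among sites called in 1 set, median widths were 31 and 27 nt for dsRNase replicates 1 and 2 and 30 and 21 nt for ssRNase replicates 1 and 2. These groups overlapped (mean difference 3.50 nt, exact two-sided permutation p = 0.667, n = 2 per RNase). Within replicates the difference was 1 nt in replicate 1 and 6 nt in replicate 2, and without ssRNase replicate 2 it was -1 nt. Sites called in both replicates of an RNase and in no set of the other had a median of 43 nt for dsRNase (18229 sites) and 31 nt for ssRNase (615 sites). Sites of 1 dsRNase and 1 ssRNase set, also supported by 2 sets, lay between them at 38 nt when pooled (1417 sites). Their medians ran from 28 nt for replicate 2 of both RNases to 41 nt for replicate 1 of both. The larger gap of 43 against 31 nt has no test, since each value is a single figure for the list.

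The share of sites with an ssRNase call did not follow width in 1 direction. It was 16.8% (15.7 to 17.9%) for sites of at most 20 nt, lowest at 9.21% (8.74 to 9.69%) for 21 to 30 nt, and 13.8% for 31 to 40 nt. It then climbed to 23.2% at 41 to 60 nt, 37.6% at 61 to 100 nt and 60.4% above 100 but under 200 nt. Of the 894 sites of 200 nt or more, 85.7% (83.2 to 87.8%) had an ssRNase call. Merging calls of more sets widens a site, and no site called in 1 set was wider than 143 nt. The climb with width therefore cannot be told apart from merging. At the short end the ssRNase sets differed. Replicate 2 called 13.6% of the sites of at most 20 nt and 5.60% of those of 21 to 30 nt, and replicate 1 called 5.96% and 5.67%, so the higher share of the shortest sites was seen in replicate 2 and not in replicate 1.

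Coordinates here are as the lists give them, in a build that the sources do not name. The 3 widest sites of dsRNase alone were all over 500 nt. One of 595 nt lay on chromosome 18 (14940555 to 14941149, minus strand) with 2 and 7 calls in dsRNase replicates 1 and 2. A site of 550 nt on chromosome 9 (3011090 to 3011639, minus strand) had 1 and 7 calls, and a site of 548 nt on chromosome 19 (13176726 to 13177273, plus strand) had 2 and 2. All 3 were overlapped again at 30 and at 60 min. The 3 widest sites of ssRNase alone were far shorter, each with 1 call in both ssRNase sets. They measured 88 nt on chromosome 15 (2423709 to 2423796, minus strand), 88 nt on chromosome 23 (6459693 to 6459780, plus strand) and 86 nt on chromosome 20 (57255 to 57340, minus strand). The chromosome 15 site was the only one of these 6 with no overlap at 60 min.

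Sites with an ssRNase call tended to have neighbours with one. Sites of a strand with gaps under 500 nt were joined as a region, the nearest thing to a gene in these files, and neighbours were counted within regions. Of the neighbours of sites with an ssRNase call, 38.3% also had one, against 18.3% of the neighbours of sites without. Outside the repeated array of chromosome 20 described below, the first share was 35.7%. Set by set, 32.9% of neighbours of either ssRNase replicate's sites were called by the same set, against 16.0% and 13.2% of all sites. For dsRNase replicates 1 and 2 these shares were 77.8% and 80.2%, against 68.7% and 75.3% of all sites. The difference was smaller for dsRNase, whose high share of all sites leaves less room for one. Median gaps were 83 nt between neighbours without ssRNase calls, 54 nt where 1 of the 2 had such a call, and 35 nt where both did. Of the sites of ssRNase alone, 1469 (65.3%) lay in a region that also held a dsRNase site, at a median gap of 64 nt, and 343 (15.3%) lay within 20 nt of one. The position of sites along regions of at least 1000 nt with both RNases, from 0 at the 5′ end to 1, averaged 0.501 and 0.505 for dsRNase replicates 1 and 2 and 0.520 and 0.526 for ssRNase replicates 1 and 2. The sets of the RNases did not overlap, by a small margin (exact two-sided permutation p = 0.333).

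The 52248 sites fell into 17746 regions. Most regions were seen by dsRNase alone, 12240 or 69.0% (68.3 to 69.6%), and 711 or 4.01% (3.73 to 4.31%) by ssRNase alone. The 4795 regions with both RNases, 27.0%, held 55.5% of the sites, 62.1% of the dsRNase calls and 94.7% of the ssRNase calls. Regions of a single RNase were small. A single site made up 63.2% of the dsRNase-only regions and 91.8% of the ssRNase-only regions, with median spans of 38 and 26 nt. Regions with both RNases had a median span of 588 nt and a median of 4 sites, and 17.7% were single sites.

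The more sites a region held, the more often ssRNase called it. An ssRNase call was present in 16.3% (15.5 to 17.0%) of the 9235 single-site regions and 39.2% (37.2 to 41.2%) of the regions of 3 to 4 sites. Of the regions of 10 to 19 sites, 89.0% (86.7 to 90.9%) had one, and of those of 20 or more sites, 182 of 185 did (98.4%, 95.3 to 99.4%). A region with more sites has more places for a call, so the ratio of calls was set beside the share. Per 100 dsRNase calls there were 18.3 ssRNase calls in single-site regions, 18.0 in regions of 2 sites and 17.7 in regions of 3 to 4. The ratio was higher in larger regions, 24.2 at 5 to 9 sites, 25.9 at 10 to 19 and 22.8 at 20 or more. Long regions of the repeated array of chromosome 20, with more ssRNase than dsRNase calls, are among those of 10 to 19 sites. The ratio was not taken without the array. The ratio moved far less than the share, and both replicates had their 2 highest ratios at 5 to 19 sites.

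**Figure D2:**
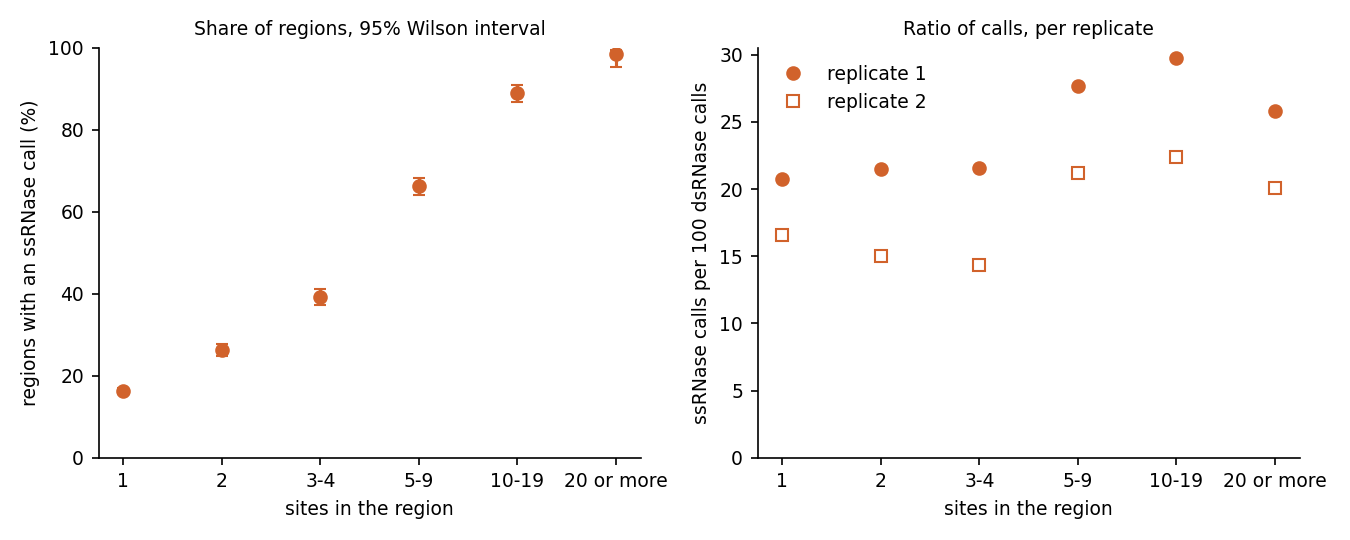
Regions of the 0-min list by number of sites, with the percentage of regions that have an ssRNase call and its 95% Wilson interval (left) and the number of ssRNase calls per 100 dsRNase calls in each replicate (right). The share climbs from 16.3% to 98.4%, while the ratio stays between 20.7 and 29.8 in replicate 1 and between 14.3 and 22.4 in replicate 2.

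Which regions were called more by an RNase than its whole list is was tested on the calls of each region relative to the total of its set, in the 2090 regions that averaged 3 or more calls per set, which hold 44.2% of the sites. By limma with Benjamini-Hochberg adjustment at 0.05, 220 regions (10.5%) had relatively more dsRNase calls and 244 (11.7%) relatively more ssRNase calls. Where both ssRNase sets are at 0 the spread between them is not measured, and 211 of the 220 dsRNase regions are of that kind. A second limma fit with voom weights was therefore added after the data were seen, and regions past both fits are described, 197 (9.43%) for dsRNase and 204 (9.76%) for ssRNase. Of the 197, 192 had 0 ssRNase calls. An ssRNase call was present in 1879 of the 2090 tested regions, so all tested regions without one passed the unweighted fit. Having no ssRNase call thus fixed the outcome of the unweighted fit and nearly that of both. Such regions also reached the minimum for the test through dsRNase calls alone. Without dsRNase replicate 1 the unweighted fit gave 37 ssRNase regions and without dsRNase replicate 2 it gave 58, so that number rests on both dsRNase sets. Without ssRNase replicate 1 it gave 697 dsRNase and 568 ssRNase regions, and without ssRNase replicate 2 it gave 528 and 515. In 726 regions (34.7%) both dsRNase values lay above both ssRNase values, and in 670 (32.1%) both lay below.

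**Figure D3:**
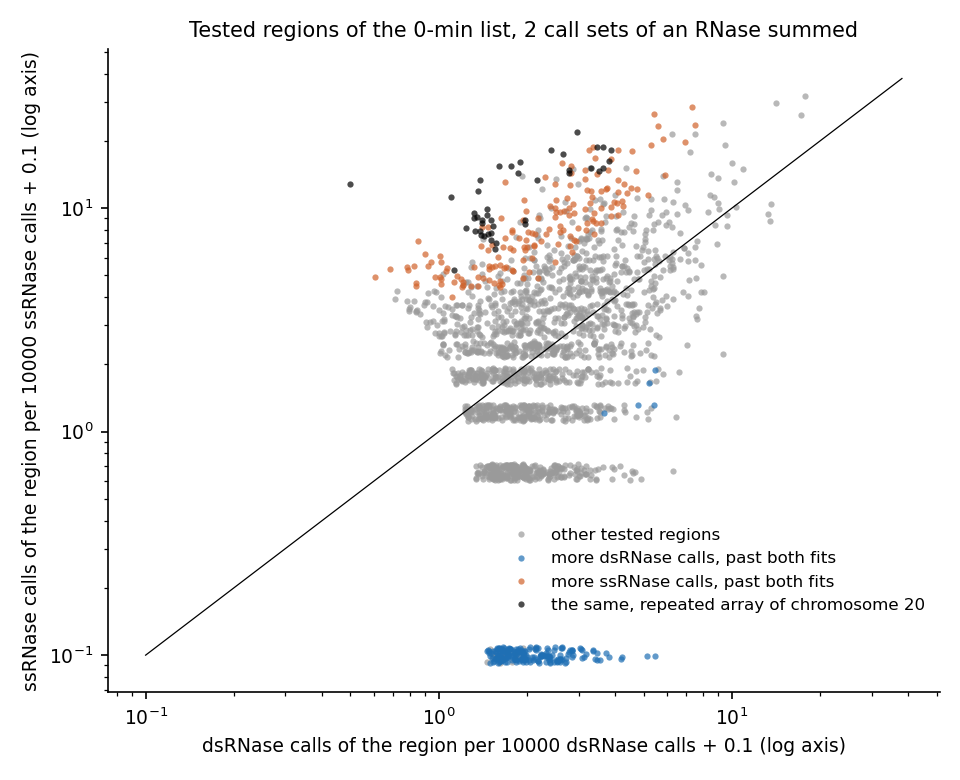
Calls of each of the 2090 tested regions per 10000 calls of the RNase, dsRNase on the x axis and ssRNase on the y axis, each plus 0.1 on log axes, with points spread slightly to show ties and a line at equal shares. Blue points (197) and orange and black points together (204) are regions past both limma fits, and the blue points lie almost wholly in the bottom row, where a region has no ssRNase call.

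The dsRNase and ssRNase regions past both fits differed in how their sites were laid out more than in their size. The dsRNase regions had a median span of 1531 nt with 9 sites and the ssRNase regions 1258.5 nt with 8 sites. Sites covered a median of 29.2% of the span in the dsRNase regions, 70.6% in the ssRNase regions and 40.3% over all tested regions. The ssRNase regions were thus the more densely covered, and 70.1% was covered in those outside the repeated array. The median number of dsRNase calls was nearly the same, 15 and 16, while the median number of ssRNase calls was 0 and 15. These layout values share the calls that chose the regions and are given as a description. On the plus strand lay 39.1% of the dsRNase regions, 56.9% of the ssRNase regions, 72.0% of the ssRNase regions outside the repeated array and 52.2% of all tested regions. The share of calls on the plus strand also varied between sets, at 55.7% and 46.3% in dsRNase replicates 1 and 2 and 60.3% and 54.7% in ssRNase replicates 1 and 2, and its part in the strand of the regions was not tested. Scaled per strand, the unweighted fit gave 223 dsRNase and 213 ssRNase regions.

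The 8 regions with the largest relative dsRNase excess had no ssRNase call at all. That absence fixed the outcome of the unweighted fit, so the p-values of these 8 are no separate support for an excess. The first lay on chromosome 14 (13237091 to 13239720, minus strand), with 22 sites and 19 and 22 calls in dsRNase replicates 1 and 2. Against a floor of 3 ssRNase calls over the group its relative dsRNase level was at least 3.01-fold higher (limma adjusted p = 0.00386, voom-weighted 0.0212). Further along the same strand (13325356 to 13327752) a region of 20 sites had 17 and 23 calls, at least 2.94-fold higher (limma adjusted p = 0.00389, voom-weighted 0.0212). These 2 were also the most densely covered of the 8, with 61.3% and 62.1% of their spans inside sites.

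The other regions of this kind were more sparsely covered, from 24.1% to 42.4% of their spans. On chromosome 12 (15694258 to 15697095, plus strand) the dsRNase sets had 15 and 16 calls, and on chromosome 9 (5688750 to 5691373, minus strand) 13 and 18, both at least 2.28-fold above the floor. On chromosome 7 a plus-strand region (6815551 to 6817255) had 14 and 14 calls and a minus-strand region (6779695 to 6781398) 13 and 15. These matched each other, with at least 80% of their site boundaries within 2 nt, so reads may be shared between copies and the pair may be 1 observation. On chromosome 8 (3070253 to 3073584, plus strand) there were 19 and 10 calls in 22 sites, and on chromosome 6 (87947 to 90296, minus strand) 15 and 12 in 17 sites. Limma adjusted p-values of these 6 ran from 0.00236 to 0.0094, and voom-weighted ones from 0.0212 to 0.0255. They carry the same limit, since none of these 6 had an ssRNase call.

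Of the 8 regions with the largest fitted ssRNase excess, 7 lay in a single stretch of chromosome 20. The minus strand there, from 2419 to 249548, held 465 sites in 69 regions that repeat with a period of about 11.6 kb, and no plus-strand site. Sites of ssRNase alone numbered 212, sites of both RNases 201 and sites of dsRNase alone 52. The stretch took 5.39% and 5.49% of the calls of ssRNase replicates 1 and 2 and 0.814% and 0.848% of those of dsRNase replicates 1 and 2, a 6.53-fold difference in relative level. All 43 of its tested regions were past both fits. Reads may be shared between its copies, so they may amount to a single observation, and what is transcribed there was not analysed here.

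Apart from 4 other regions, the repeat had regions of 3 sizes. In 21 long regions, of median span 2562 nt, medians were 9 and 10 calls in dsRNase replicates 1 and 2 and 16 and 11 calls in ssRNase replicates 1 and 2, a 6.59-fold relative ssRNase excess. In 24 regions of median span 720 nt they were 5 and 6 against 7 and 8, or 5.90-fold. Regions of the third size, 20 with a median span of 85 nt, had no dsRNase call in 18 cases, and 16 of the 20 had exactly 1 and 2 calls in ssRNase replicates 1 and 2. The largest fitted ssRNase excess among the 2090 tested regions was that of a long region (101517 to 103899) with 1 and 2 dsRNase and 15 and 6 ssRNase calls (log2 -4.29 ± 0.52 SE, dsRNase minus ssRNase, limma adjusted p = 0.0103). It was not past the threshold without either dsRNase replicate.

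**Figure D4:**
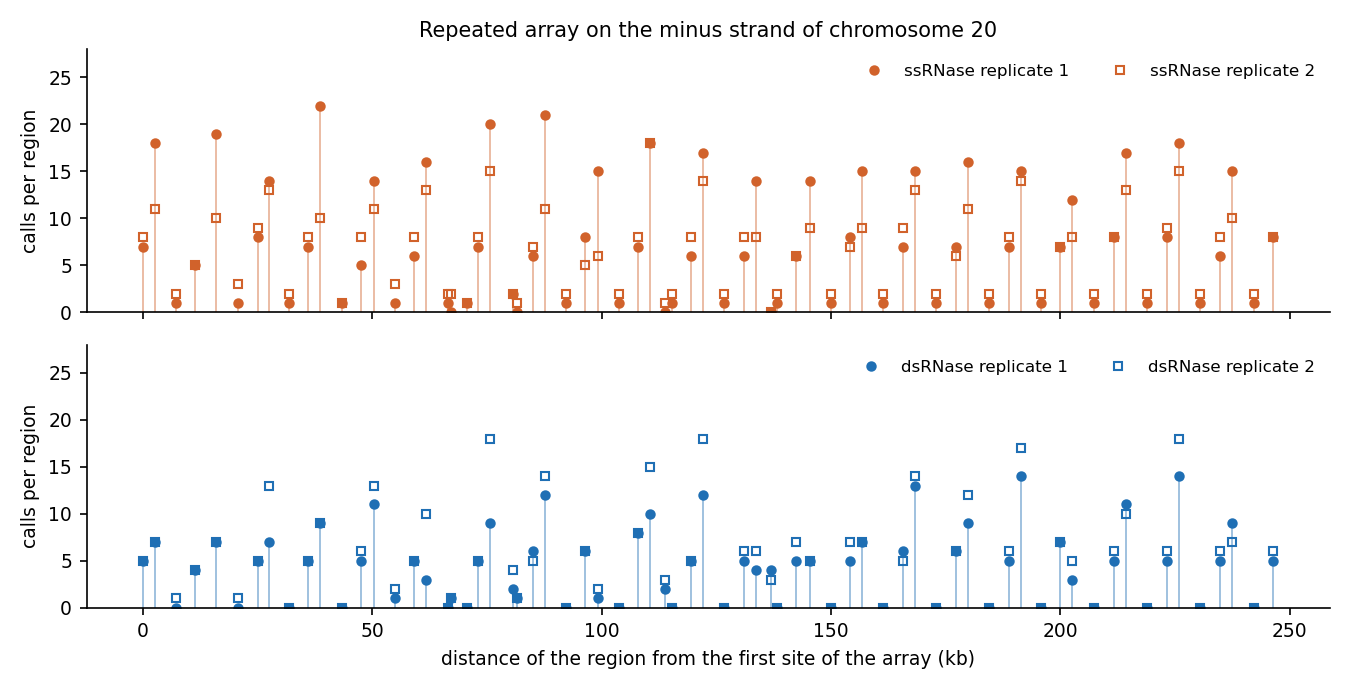
Calls per region along the repeated array on the minus strand of chromosome 20, against distance in kb from its first site, for the ssRNase sets (top) and the dsRNase sets (bottom), replicate 1 as dots and replicate 2 as squares. Tall, middle and near-empty regions recur about every 11.6 kb, and the long regions reach 22 ssRNase calls and 18 dsRNase calls in a set.

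Another 161 regions with relatively more ssRNase calls lay outside the repeated array. The one named by the rule was on an unplaced scaffold (scaffold_775, 3746 to 4382, plus strand), where 2 sites covered 99.2% of the span, with 2 and 4 dsRNase and 7 and 6 ssRNase calls (log2 -3.04 ± 0.34 SE, limma adjusted p = 0.00824). With sites counted in place of calls it was not past the threshold (log2 -1.92, limma adjusted p = 0.0855).

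Further regions outside the array were chosen after their values were seen, first 4 with the most ssRNase calls. They were taken from regions past the unweighted fit whose relative dsRNase values both lay below both ssRNase values. All 4 were past both fits. On chromosome 1 (2054989 to 2059803, plus strand) the dsRNase sets had 25 and 29 calls and the ssRNase sets 23 and 25, a 4.03-fold relative excess (limma adjusted p = 0.0208). On chromosome 19 (5680701 to 5683325, minus strand) they had 19 and 21 and 25 and 21, or 5.22-fold (adjusted p = 0.00633). The summed calls of the RNases were thus 54 and 48 in the first region and 40 and 46 in the second, where the whole list had 22.0 ssRNase calls per 100 dsRNase calls. A second chromosome 1 region (2415540 to 2419267, plus strand) had 19 and 23 against 18 and 21 calls, or 4.21-fold, and a chromosome 21 region (3472828 to 3477793, plus strand) 23 and 34 against 19 and 24, or 3.42-fold. None of these 4 was past the threshold in the unweighted fit without dsRNase replicate 1 or without dsRNase replicate 2, and the chromosome 21 region also fell short when scaled per strand or with a prior of 0.25 calls.

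The others were the 5 next in size of difference, and they held few calls. On chromosome 1 (17372492 to 17374673, plus strand) the dsRNase sets had 3 and 11 calls and the ssRNase sets 13 and 9, or 7.13-fold, which fell short without dsRNase replicate 1, scaled per strand, without a mean trend and with sites in place of calls. On chromosome 27 (4946110 to 4946647, plus strand) there were 2 and 2 against 3 and 6 calls, or 10.2-fold (limma adjusted p = 0.0487, and 0.0793 with the replicate block). This region also fell short when scaled per strand, with a prior of 0.25 calls and at a gap of 1000 nt. On chromosome 26, 3 short minus-strand regions (16105 to 16737, 1472727 to 1473020 and 1781830 to 1782125) had 5 or 6 dsRNase and 10 ssRNase calls each, 7.56- to 9.07-fold. The chromosome 26 and 27 regions fell short without either dsRNase replicate, and those at 16105 and 1472727 also with sites in place of calls.

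None of the 5 most covered regions of the list was past both fits, although each was past the unweighted fit under at least 1 alternative, all 5 of them without ssRNase replicate 1. On chromosome 21 (2831244 to 2839987, plus strand) 69 sites held 68 and 86 dsRNase and 35 and 21 ssRNase calls (log2 -0.68 ± 0.67 SE, limma adjusted p = 0.523). On chromosome 8 (11648692 to 11659620, minus strand) there were 67 and 76 against 27 and 19 (log2 -0.52 ± 0.55 SE, adjusted p = 0.545, and 0.0384 at a gap of 200 nt), and on chromosome 14 (5634164 to 5642686, plus strand) 62 and 61 against 29 and 23 (log2 -0.92 ± 0.54 SE, adjusted p = 0.305, voom-weighted 0.0445). Copies on chromosome 10 differed in their ssRNase calls. At 9450502 to 9456674 (plus strand) the dsRNase sets had 29 and 46 calls and the ssRNase sets 23 and 23 (log2 -1.49 ± 0.38 SE, limma adjusted p = 0.0744, voom-weighted 0.0277). It passed the unweighted limma fit with a minimum mean of 2 or 5 calls, a prior of 1 call or sites in place of calls, at adjusted p from 0.0424 to 0.0491. At 9467100 to 9473225 (minus strand) they had 29 and 45 and 8 and 17 (log2 -0.54 ± 0.53 SE, adjusted p = 0.522). The dsRNase calls of the copies were all but equal, and no source used here says how reads were divided between them.

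Regions called by ssRNase and never by dsRNase were thin and held at most 7 calls. On chromosome 15 a plus-strand region (2421875 to 2422997) had 5 and 2 calls in ssRNase replicates 1 and 2 over 6 sites. On the opposite strand within it (2422504 to 2422950) a region had 4 and 2 calls, as did its matching copy (2390024 to 2390470, minus strand). On chromosome 11 (5730260 to 5730441, minus strand) a region that matches one on chromosome 4 had 3 and 2 calls. None reached the minimum for the test.

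Sites that overlap a site on the opposite strand were rare, 74 in all, and more frequent among sites of ssRNase alone. They were 33 of the 2249 sites of ssRNase alone (1.47%), 17 of the sites of both RNases (0.191%) and 24 of those of dsRNase alone (0.0584%). By set the share was 0.0835% and 0.0915% in dsRNase replicates 1 and 2 and 0.490% and 0.507% in ssRNase replicates 1 and 2, so the RNases did not overlap (exact two-sided permutation p = 0.333, the smallest possible). On chromosome 15 all 12 such sites were of ssRNase alone, on chromosome 11 it was 7 of 8, and on chromosome 21, with 16, it was 4. The excess therefore rested largely on a few places.

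Chromosomes took different shares of the calls of each RNase. With the scaffolds pooled as 1, 13 of 28 sequences tested (46.4%) had a higher share of dsRNase calls and 4 (14.3%) a higher share of ssRNase calls, by limma with Benjamini-Hochberg adjustment. Without dsRNase replicate 1 or without dsRNase replicate 2, 5 passed for dsRNase and 3 for ssRNase. Chromosome 20 took 4.55% and 4.43% of the calls of dsRNase replicates 1 and 2 and 8.69% and 8.94% of those of ssRNase replicates 1 and 2 (log2 -0.97 ± 0.04 SE, adjusted p = 3.6e-06). Without the repeated array the shares were 3.76% and 3.62% against 3.49% and 3.65%, and the difference was 0.05 (limma adjusted p = 0.351). The chromosome's excess of ssRNase calls was thus held by the array.

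The scaffolds showed the largest relative ssRNase excess of the 28. They took 0.766% and 0.825% of the dsRNase calls and 1.54% and 1.82% of the ssRNase calls (log2 -1.07 ± 0.08 SE, limma adjusted p = 8.2e-05). There were 46.1 ssRNase calls per 100 dsRNase calls on scaffolds, 43.7 without the scaffold region richest in ssRNase calls and 35.3 without the 10 richest, so no single region held the excess. Chromosome 26 took 2.59% and 2.55% against 3.28% and 3.25% (log2 -0.35 ± 0.04 SE, adjusted p = 0.000601). There the ratio went from 28.1 to 19.9 without its 10 richest regions. Leaving out regions by their ssRNase calls lowers the ratio anywhere, and on chromosome 25 it went from 14.3 to 9.95. The drop therefore cannot show whether few regions held the excess of chromosome 26.

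Chromosome 25 had the largest relative dsRNase excess, with 1.97% and 2.01% of the dsRNase calls and 1.42% and 1.16% of the ssRNase calls (log2 0.64 ± 0.09 SE, limma adjusted p = 0.00101). Chromosome 9 followed with 3.21% and 3.33% against 2.74% and 2.48% (log2 0.33 ± 0.06 SE, adjusted p = 0.00287), and it was not past the threshold without dsRNase replicate 2. Since the array took more of the ssRNase total, leaving it out moved every other sequence toward ssRNase, and 8 sequences then had more dsRNase and 7 more ssRNase calls. The call was the same with and without the array for 11 sequences that passed, among them chromosomes 9, 25 and 26 and the scaffolds.

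**Figure D5:**
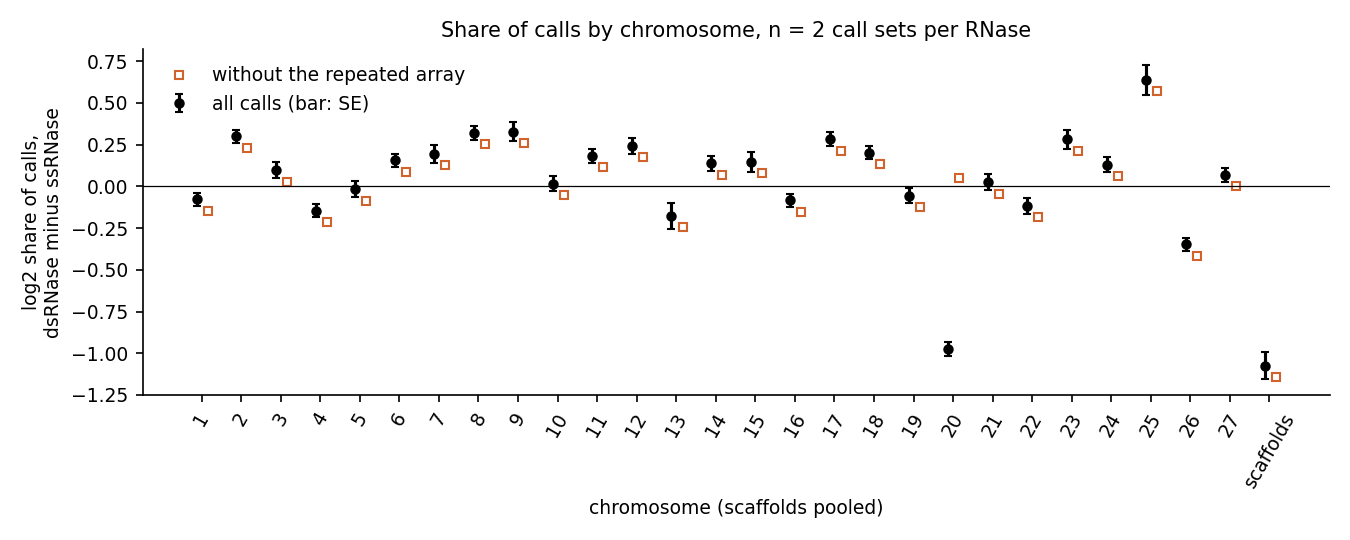
Difference in the log2 share of calls, dsRNase minus ssRNase, for 27 chromosomes and the pooled scaffolds, with all calls (black, bars are the SE of the limma fit, n = 2 call sets per RNase) and without the repeated array (orange squares). Chromosome 20 goes from -0.97 to 0.05 without the array, while the scaffolds stay below -1 and chromosome 25 above 0.5.

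The lists of 30 and 60 min, which took no part in these groupings, were used to ask which 0-min sites recurred. Of the sites of both RNases, which pool 2, 3 and 4 sets and are the widest, 91.7% (91.1 to 92.3%) were overlapped by a site on the same strand at 30 min and 84.8% (84.0 to 85.5%) at 60 min. Sites of dsRNase alone recurred in 58.0% and 52.7%, and sites of ssRNase alone in 61.8% and 43.1%. Among sites called in a single set, 48.7% and 36.5% of those of dsRNase replicates 1 and 2 recurred at 30 min and 57.4% and 44.3% of those of ssRNase replicates 1 and 2, so the groups overlapped (exact two-sided permutation p = 0.667). Among such sites of 20 to 40 nt the groups did not overlap, with 45.9% and 35.9% against 55.9% and 55.3% (difference -14.7 percentage points, exact two-sided permutation p = 0.333, the smallest possible). At 60 min single-set sites of any width recurred in 35.2% and 37.0% against 27.3% and 37.0% (exact two-sided permutation p = 1). Those of 20 to 40 nt recurred in 32.5% and 35.7% against 24.3% and 38.1%. For single-set sites of any width, only later sites with a call of the same RNase were then counted. The shares at 60 min were 34.7% and 36.7% against 15.5% and 32.8%, with no overlap (exact two-sided permutation p = 0.333, the smallest possible). Support by both replicates went with more recurrence for either RNase. Sites of both dsRNase sets alone recurred in 78.6% (78.0 to 79.2%) at 30 min and 73.3% at 60 min, and sites of both ssRNase sets alone in 89.1% (86.4 to 91.3%) and 73.3%. Sites of 1 dsRNase and 1 ssRNase set, also supported by 2 sets, recurred less when pooled, in 71.7% (69.3 to 74.0%) and 56.7% (54.1 to 59.3%). At 30 min they ran from 48.7% for replicate 2 of both RNases to 81.4% for replicate 1 of both, above the share of both dsRNase sets. At 60 min all combinations were lower than both dsRNase sets, from 54.4% to 60.7%. Among sites of 20 to 40 nt, those of 1 dsRNase and 1 ssRNase set recurred in 68.8% at 30 min and 54.3% at 60 min. Those of both dsRNase sets alone recurred in 69.5% and 64.5%, and those of both ssRNase sets alone in 86.5% and 65.9%. At this width the lower recurrence than that of both dsRNase sets was thus seen at 60 min and hardly at 30 min.

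The RNase of the later site was then compared with that of the 0-min site. Of the sites of ssRNase alone at 0 min, 52.6% were overlapped at 30 min by a site with an ssRNase call and 24.5% by a site with a dsRNase call, and at 60 min 36.3% and 14.7%. Of the sites of dsRNase alone, 56.9% and 15.7% were overlapped at 30 min by a site with a dsRNase and with an ssRNase call, and 52.3% and 5.90% at 60 min. Sites of ssRNase replicate 1 alone did not share the order of the pooled ssRNase sites at 60 min, with 15.5% overlapped by a site with an ssRNase call and 16.3% by one with a dsRNase call.

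The regions past both fits leaned the same way at the later times, though the dsRNase regions far less, by their share of each later set's calls. The 197 dsRNase regions took 3.01% and 3.08% of the dsRNase calls of replicates 1 and 2 at 30 min and 1.03% and 1.63% of the ssRNase calls, and at 60 min 3.01% and 2.88% against 0.782% and 1.25%. They were not free of ssRNase calls then, with 398 at 30 min against 12 at 0 min, where such calls had been nearly absent by choice. Their ssRNase share over their dsRNase share was 0.0161 at 0 min, 0.463 at 30 min and 0.348 at 60 min. The 161 ssRNase regions outside the array took 3.03% and 4.26% of the dsRNase calls and 12.9% and 8.69% of the ssRNase calls at 30 min, and 3.43% and 4.14% against 14.3% and 13.4% at 60 min. The array took 0.731% and 1.02% against 4.28% and 2.45% at 30 min, and 0.958% and 1.08% against 6.39% and 5.25% at 60 min. The same ratio at 0, 30 and 60 min was 3.69, 2.89 and 3.67 in the 161 regions and 6.53, 3.68 and 5.70 in the array. In each of these groups and at both later times the dsRNase and ssRNase sets did not overlap (exact two-sided permutation p = 0.333 each, the smallest possible).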

How the data were processed

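Strand-specific PIP-seq libraries of P. patens were processed by the submitters with cutadapt 1.2.1 and TopHat2 2.0.10, per the submitters' processing notes. The build these notes name, mm10, is a mouse build and cannot be that of lists with chromosomes 1 to 27, so no source used here gives the build, nor any setting of the peak caller beyond a false discovery rate of 5% in the lists' names. The authors deposited 1 merged list per time with a score per site, of no stated unit, which served only to split the list at its median in an alternative. Replicates were merged into the list, and call names kept their set.

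From the lists, sites, calls and regions (same strand, gaps under 500 nt) were counted with Python 3.11.15 and pandas 2.3.3, with 95% Wilson intervals and exact two-sided permutation tests over sets (scipy 1.17.1). Calls per region, plus a prior of 0.5 calls scaled to the set's total, were taken as the log2 share of the set's calls. They were fitted with limma 3.58.1 under R 4.3.3, using a mean trend and Benjamini-Hochberg adjustment over all tested regions. The fit was tested on simulated calls, where its wrong calls had no ssRNase call in either set, and a voom-weighted limma fit was added for that reason. Chromosome shares were fitted with limma likewise, without a prior. A fold against a group with no call was taken against 3 calls over the group.

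The replicate numbers pair the sets, since the design text says that each replicate was divided between the RNases; over 2090 tested regions the deviations of same-numbered sets correlated at r = 0.13. Named regions were the 8 with the largest difference in each direction among those past the test where the sets of the RNases did not overlap. Also named were the 5 most covered regions and the 4 with the most calls of a single RNase. The 2 extreme chromosomes each way and the 3 widest sites of each RNase alone were named too. The members, rules and lists were chosen with earlier results of these data known. Alternatives varied the gap, prior, minimum, scaling, unit, replicate block, overlap rule and call sets. Sequences, genes and location in transcripts were not analysed here.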

Additional observations from a re-analysis of the deposited data

How the results depend on the processing

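The ratio of dsRNase to ssRNase calls per set (4.54) was 4.59 with the replicate block and 4.20 to 4.89 with a set left out. The share of sites with an ssRNase call (21.3%) was 15.7% when both replicates of an RNase were required, 34.4% in the higher-scoring part of the list, 20.7% without the repeated array and 13.4 to 28.7% with sets or replicates left out. The share of ssRNase sites with a dsRNase call (79.8%) was 74.3%, 93.0%, 81.0% and 69.4 to 82.0% under the same settings. The width difference of 3.50 nt ran from -1 to 8 nt with a set left out. Agreement within dsRNase, within ssRNase and between them (50.5%, 37.1% and 14.2%) was 70.3%, 59.9% and 73.6% as a share of the smaller set, and 58.1%, 47.3% and 24.6% over regions. DsRNase-only regions (69.0%) were 73.0% at a gap of 200 nt, 64.7% at 1000 nt, 74.4% with both replicates required and 60.0 to 78.7% with a set left out. SsRNase-only regions (4.01%) were 2.71% with both replicates required and 2.27 to 7.55% with a set left out.

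Of the 464 regions past the unweighted limma fit, 220 for dsRNase and 244 for ssRNase, the replicate block gave 483 and, among the regions named above, ended the call at 4946110 on chromosome 27 alone. A gap of 200 nt gave 120 dsRNase regions. A minimum mean of 2 calls gave 970 regions, 650 of them for dsRNase, and one of 5 calls gave 256 and 47. Without a mean trend, added after the data were seen, 405 regions passed. The counts ran from 248 to 1265 regions, 211 to 697 for dsRNase and 37 to 568 for ssRNase, with a set left out, where the lone set is assumed to vary like the other RNase. Chromosomes past the limma fit numbered 17, 19 with the replicate block, and 8 to 22 with a set left out (5 to 15 for dsRNase, 3 to 7 for ssRNase). Without the array they were 8 for dsRNase and 7 for ssRNase, and chromosome 20 was at 0.0497. The 30-min recurrence difference of -8.25 percentage points, dsRNase minus ssRNase, was -14.7 for sites of 20 to 40 nt, 1.62 for a later site of the same RNase and -14.8 to -1.72 with a set left out. That at 60 min, 3.95, was 11.5 for a later site of the same RNase and ran from -0.92 to 8.81 with a set left out, below 0 without ssRNase replicate 1. The chromosome 10 region at 9467100 ran from -1.18 to 0.098 with a set left out, above 0 without ssRNase replicate 2. The cause of these shifts was not tested. Over 34 named regions and chromosomes, 442 of 496 values kept their direction and side of the threshold, 36 fell short of it, 16, all of the 5 most covered regions, newly passed it and the 2 given above changed sign. Depth is unknown, so limits from reads cannot be given.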
